A study of Mus musculus with 12 samples.

Results

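The 8 genes described here belong to the G1 cell cycle switch: the cyclin-dependent kinase (CDK) inhibitor genes Cdkn1a, Cdkn1b, Cdkn1c, Cdkn2c and Cdkn2d, and the D-type cyclin genes Ccnd1, Ccnd2 and Ccnd3. They were chosen by name, and each symbol matched 1 of the 55604 genes counted. All 8 passed the filter on low counts, among 16406 genes tested. RNA was sequenced from macrophages that had been grown out of C57BL/6 mouse bone marrow for 7 days in 20 ng/ml M-CSF, the growth factor that all 3 groups of 4 libraries share. One group was macrophages alone, which received no treatment. The second was given dead control cells of the mouse melanoma line B16-F10 (B16F-F10 in the protocol text). The third was given dead cells of that line that overexpress STC1, a secreted glycoprotein. Macrophages and corpses were cultured together for 20 h, after which unbound corpses were washed off. The ratio is given as 1 to 5, without saying which number is the corpses. The labels do not say how the cells were killed, which sequence drives STC1, or whether the overexpressing line is a single clone, and the sources used here do not give the age of the mice. The series' text speaks of independent experiments, but no label ties a library to an animal or a culture, so the p-values measure the spread between these libraries.

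D-type cyclins are made in response to growth factors. They bind and activate CDK4 and CDK6, which phosphorylate the retinoblastoma protein and release E2F transcription factors that switch on the genes of DNA replication. Inhibitors of the INK4 family, which include the products of Cdkn2c (p18) and Cdkn2d (p19), bind CDK4 and CDK6 and keep D-type cyclins off. Inhibitors of the CIP/KIP family, the products of Cdkn1a (p21), Cdkn1b (p27) and Cdkn1c (p57), bind cyclin-CDK complexes more broadly and block CDK2. M-CSF drives macrophage precursors into the cycle and induces Ccnd1, and cells that leave the cycle commonly carry more p27 or p57. Several of these proteins are controlled by degradation, which read counts do not show.

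The libraries held 28488441 to 39981074 counts on genes, and levels are counts-per-million values (CPM), scaled with TMM factors. Libraries of 1 group differed beyond sampling noise (chi-square per degree of freedom 2.69 to 16.5). The closest pairs were libraries 3 and 4 of each group (2.69 to 2.85), followed by libraries 1 and 2 of macrophages alone (3.02) and of the STC1 group (4.14). In the control corpse group libraries 1 and 2 were no such pair: they differed more (7.02) than libraries 2 and 4 (5.35). The labels give no reason, so member results are also given from libraries 1 and 2 or 3 and 4 alone where these differ. All 10 macrophage markers had a mean of at least 1 CPM in each group. Their summed level was 17020 to 17830 CPM in macrophages alone, 14720 to 16400 with control corpses and 14600 to 15750 with STC1-overexpressing ones. Lyz2 held most of this sum (means of 11180, 9150 and 8679 CPM). Csf1r, Adgre1, Itgam and C1qa also had lower means with either kind of corpse. Cd68 (1077, 1504 and 1748 CPM), Mertk and Fcgr1 had higher means with either, and C1qb and C1qc moved little. The 12 melanocyte markers summed to 6.70 to 7.41, 17.1 to 21.5 and 11.3 to 12.8 CPM. Most of the sum in macrophages alone was Erbb3 (means of 4.57, 5.11 and 5.32 CPM in the 3 groups) and Slc24a5 (1.90, 2.775 and 2.84 CPM). Tyrp1 stood at 0.0312, 4.09 and 1.045 CPM and Dct at 0.0384, 3.07 and 0.828 CPM. Tyr, Gpr143 and Oca2 were at 0 in macrophages alone, but Oca2 had only 1 count in each corpse group. The 9 neutrophil markers summed to 178 to 186, 91.7 to 97.1 and 84.7 to 91.3 CPM. Most of this sum was the single gene Mmp8 (means of 166.5, 90.2 and 83.75 CPM). No other neutrophil marker had a group mean above 4.95 CPM. B cell markers (1.73 to 2.69 CPM over all libraries), T and NK cell markers (0.118 to 0.648 CPM) and fibroblast markers (12.5 to 23.9 CPM) were low. In such bulk libraries, fewer cells with a transcript and less transcript per cell cannot be told apart. Mouse RNA carried in by corpses cannot be told apart from macrophage RNA either. Its part in the results of the members and lists was not tested. Stc1, the gene overexpressed in the corpses, had 17 counts over the 4 STC1 libraries and 5 in each other group. The sources used here do not say whether the construct would be counted.

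The question put to these genes was how they differed between macrophages given corpses and macrophages alone, and between the kinds of corpse. Cdkn1c had the largest fold change of the 8 genes in every comparison. Cdkn1b, Cdkn1a and Ccnd3 were lower with either kind of corpse, and Ccnd1 was higher with either. With control corpses 2 of 8 members rose and 3 fell at an adjusted p below 0.05 (edgeR), where 40.1% of all genes tested were called, 19.7% higher and 20.4% lower. With STC1-overexpressing corpses 2 rose and 5 fell, where 43.8% of genes were called, 21.4% higher and 22.4% lower. Between the corpse groups 2 were higher and 2 lower with STC1-overexpressing corpses, where 5.48% were called, 3.37% higher and 2.11% lower. Both comparisons with macrophages alone share those libraries. The members' median log2 fold change was -0.13, -0.15 and 0.03 in these comparisons, against -0.000777, -0.03 and -0.01 over all genes tested. A call here says little about size, since the median called gene moved by 0.27, 0.29 and 0.16 on the log2 scale.

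**Figure D1:**
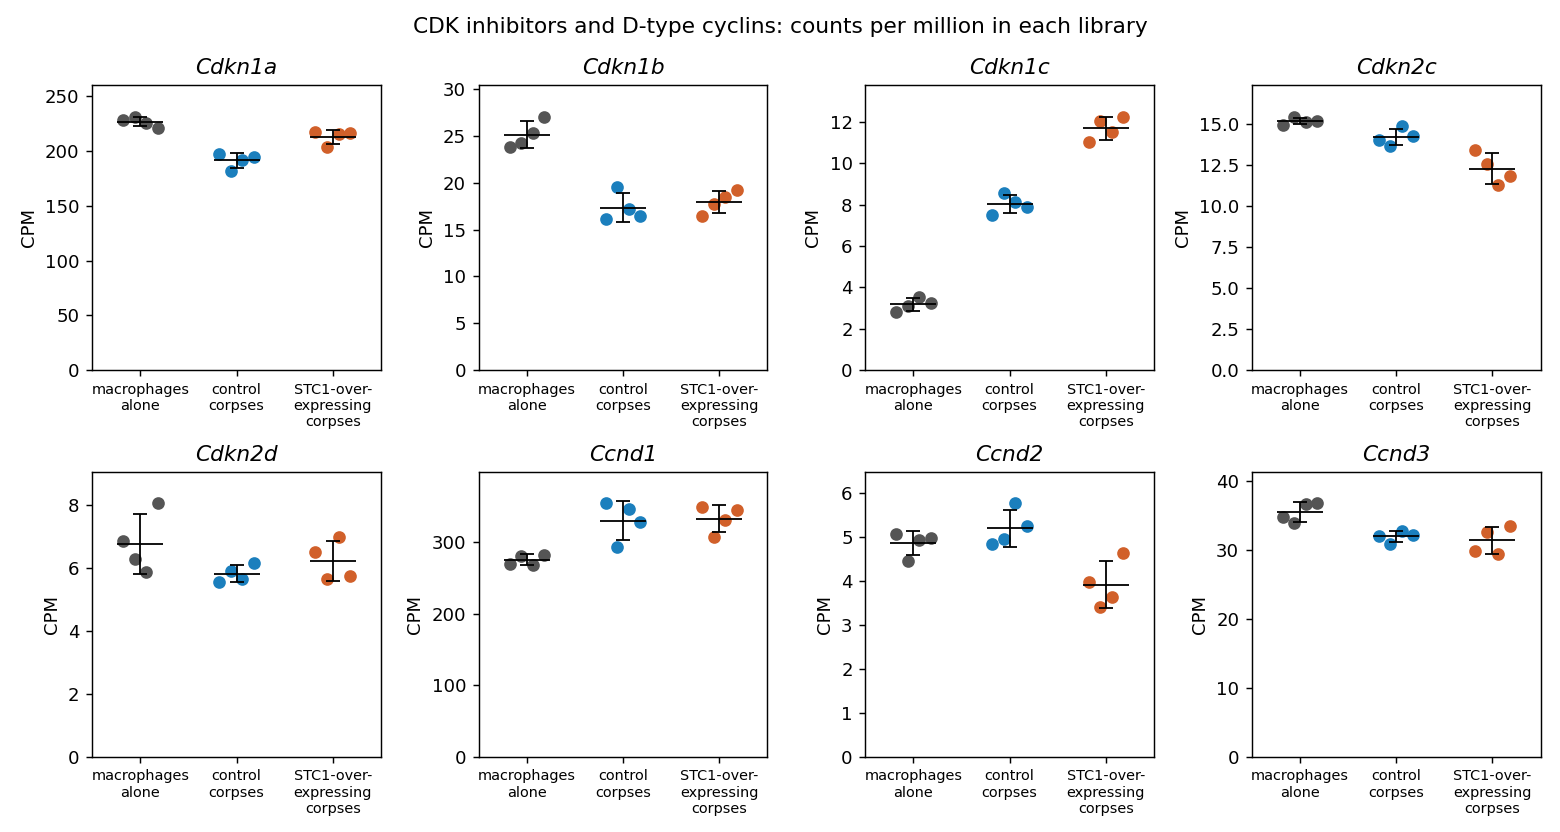
CPM (TMM-scaled counts-per-million values, linear axis from 0) of the 8 genes in each library, by group, with points in order of library number; black bars are the mean and SD of 4 libraries. Cdkn1c lies between 2.80 and 3.54 CPM in macrophages alone, between 7.50 and 8.58 with control corpses and between 11.01 and 12.26 with STC1-overexpressing corpses.

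Levels between genes can be compared per length only, here as CPM per kilobase of all annotated exons. In macrophages alone Cdkn1a stood at 63.8 ± 1.2 and Ccnd1 at 58.6 ± 1.58 CPM per kilobase (SD, n = 4), far above the other 6 genes. Cdkn2c (5.56 to 5.75) and Cdkn1b (5.24 to 5.94) followed and their ranges overlapped, as did those of Cdkn2d (3.74 to 5.12) and Ccnd3 (3.87 to 4.20). Cdkn1c (1.37 to 1.74) and Ccnd2 (0.473 to 0.539) were lowest and overlapped no other member. With STC1-overexpressing corpses Cdkn1c reached 5.401 to 6.015 CPM per kilobase, above the ranges of Cdkn1b (3.62 to 4.23), Cdkn2c (4.21 to 5.00) and Cdkn2d (3.58 to 4.45) in the same group. With control corpses Cdkn1c (3.68 to 4.21) overlapped Cdkn1b (3.55 to 4.30) and Cdkn2d (3.53 to 3.91) and lay below Cdkn2c (5.08 to 5.52). Of the summed level of the 5 inhibitor genes, Cdkn1c made up 1.92% ± 0.195 in macrophages alone, 5.59% ± 0.422 with control and 7.35% ± 0.462 with STC1-overexpressing corpses, while Cdkn1a made up 78.9% ± 1.12, 76.3% ± 1.24 and 76.7% ± 0.475 (SD, n = 4). Among D-type cyclins Ccnd1 made up 92.8% ± 0.346, 94.3% ± 0.359 and 94.6% ± 0.458, Ccnd3 6.42% ± 0.298, 4.92% ± 0.306 and 4.80% ± 0.451, and Ccnd2 under 1% in each library. The order of the top genes depends on the length used: per kilobase of the longest transcript, Cdkn1a exceeded Ccnd1 in all groups (109.0 against 73.7, 92.0 against 88.4 and 102 against 89.1), whereas per kilobase of all exons Ccnd1 was the higher with corpses. By the longest transcript Ccnd3 ranked next after them in each group. In macrophages alone it stood at 9.22 CPM per kilobase by that length, against 4.05 by all exons. The shares above were computed by all exons and also depend on the length used.

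**Figure D2:**
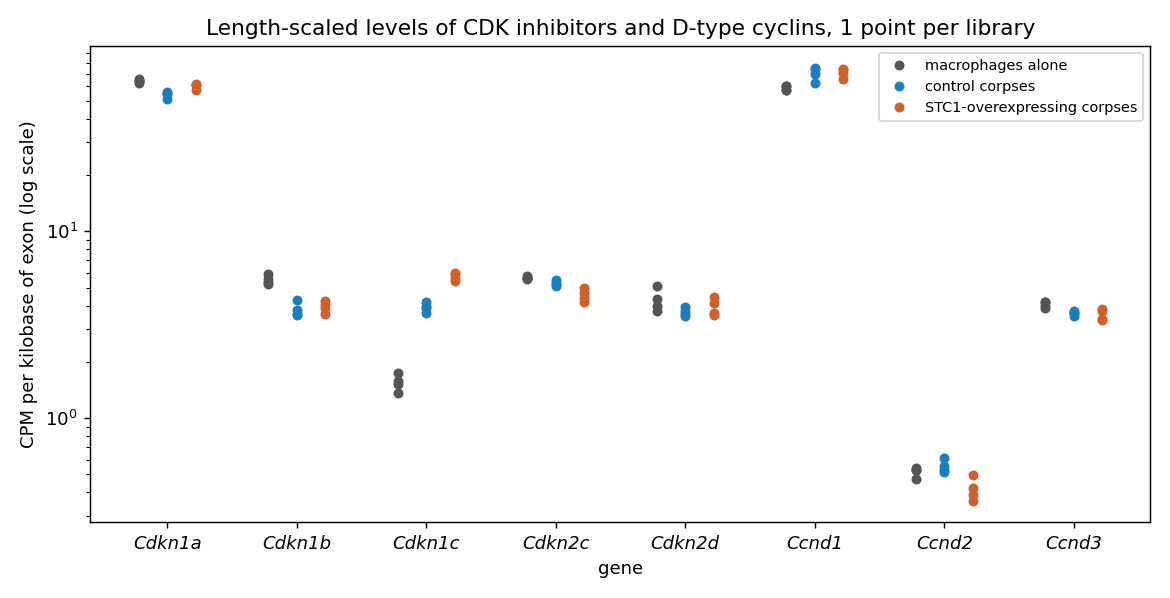
CPM per kilobase of annotated exon (log axis) of the 8 genes, 1 point per library, coloured by group. Cdkn1a and Ccnd1 lie far above the other genes in each library, Ccnd2 lies lowest, and Cdkn1c moves from 1.37 to 1.74 in macrophages alone to 5.401 to 6.015 with STC1-overexpressing corpses.

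Cdkn1c encodes p57, the CIP/KIP inhibitor with the narrowest tissue range, and is transcribed from the maternal chromosome only. The gene (ENSMUSG00000037664.13) lies on chromosome 7, 143458339 to 143461050, minus strand, GRCm38. The libraries of macrophages alone held 2.80, 3.09, 3.54 and 3.24 CPM. Those with control corpses held 7.50, 8.58, 8.15 and 7.91 CPM, and those with STC1-overexpressing corpses 11.01, 12.03, 11.5 and 12.26 CPM. Every library of a group lay apart from those of the other groups. Against macrophages alone the log2 fold change was 1.33 ± 0.08 (SE) with control corpses, a 2.52-fold rise (95% interval 2.24 to 2.84; adjusted p = 3.48e-14 by edgeR's quasi-likelihood test with Benjamini-Hochberg adjustment). With STC1-overexpressing corpses it was 1.88 ± 0.08, a 3.68-fold rise (3.27 to 4.14; adjusted p = 4.17e-18 by edgeR). Of all genes tested, 0.951% and 0.347% had a larger absolute log2 fold change in these comparisons. Between the corpse groups Cdkn1c was 1.46-fold higher with STC1-overexpressing corpses (1.31 to 1.62; log2 fold change 0.54 ± 0.07, adjusted p = 1.86e-05 by edgeR).

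That difference between the corpse groups was 0.52 on the log2 scale in libraries 1 and 2 alone (adjusted p = 0.0535 by edgeR) and 0.57 in libraries 3 and 4 alone. The summed melanocyte markers were at 17.1 to 21.5 CPM with control and 11.3 to 12.8 CPM with STC1-overexpressing corpses. Within that sum Tyrp1 stood at 4.09 and 1.045 CPM and Erbb3 at 5.11 and 5.32 CPM. The summed neutrophil markers, mostly Mmp8, were lower in both corpse groups than in macrophages alone. The part of melanocyte or neutrophil transcripts in the Cdkn1c result was not tested. An annotated antisense gene, Gm44732, overlaps 625 exon bases of Cdkn1c and had 0 counts over the 12 libraries. The genes whose log2 CPM followed Cdkn1c most closely over the 12 libraries, among 9927 protein-coding genes, were Slc11a1 (Pearson r = 0.9963), Plek (0.9929) and Hexa (0.9927). Slc11a1 encodes a metal transporter of phagosomes and had mean levels of 515, 711 and 804.5 CPM in macrophages alone, control and STC1 groups. Hexa, a lysosomal hexosaminidase subunit, stood at 613, 751 and 822 CPM. These coefficients are descriptions over libraries that share groups and depth.

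Cdkn1b encodes p27, which holds cyclin E-CDK2 inactive in resting cells and is removed by the SKP2 ubiquitin ligase as cells enter S phase. The gene (ENSMUSG00000003031.14, chromosome 6, 134920401 to 134925513, plus strand) and the other inhibitor gene that fell with both kinds of corpse, Cdkn1a (p21, a direct p53 target; ENSMUSG00000023067.14, chromosome 17, 29090976 to 29100727, plus strand), are shown with Ccnd3, the D-type cyclin that fell with both (ENSMUSG00000034165.16, chromosome 17, 47505051 to 47599691, plus strand). The 250 bases before their first RefSeq start (GRCm38.p6, plus strand) are printed 5′ to 3′, at chr6:134920151-134920400 for Cdkn1b, chr17:29090729-29090978 for Cdkn1a and chr17:47504801-47505050 for Ccnd3. Capitals mark matches to the motifs searched.
Cdkn1b: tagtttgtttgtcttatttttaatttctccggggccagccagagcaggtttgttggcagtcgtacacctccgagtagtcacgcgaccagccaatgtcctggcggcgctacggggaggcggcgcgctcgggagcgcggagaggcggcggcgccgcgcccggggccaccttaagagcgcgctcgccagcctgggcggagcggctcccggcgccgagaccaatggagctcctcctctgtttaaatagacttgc
Cdkn1a: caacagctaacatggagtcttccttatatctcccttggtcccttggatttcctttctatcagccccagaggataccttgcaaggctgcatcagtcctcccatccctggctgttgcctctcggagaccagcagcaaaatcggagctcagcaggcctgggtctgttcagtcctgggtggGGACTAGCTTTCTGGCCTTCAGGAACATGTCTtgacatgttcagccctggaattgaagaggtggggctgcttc
Ccnd3: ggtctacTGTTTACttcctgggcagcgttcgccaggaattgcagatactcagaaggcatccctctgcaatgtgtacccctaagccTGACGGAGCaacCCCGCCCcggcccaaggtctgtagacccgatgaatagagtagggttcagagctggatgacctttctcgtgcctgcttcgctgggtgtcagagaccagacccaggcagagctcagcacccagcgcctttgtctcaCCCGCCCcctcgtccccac

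The motifs were searched on both strands of 300-base windows, 250 before to 50 after each start. They were E2F (TTTCCCGC, TTTGGCGC or TTCGCGC, in 3.06% of 32851 windows), AP-1 (TGAGTCA or its complement TGACTCA, 5.20%), CRE (TGACGTCA, 1.79%), E-box (CACGTG, 7.15%), FOXO (TGTTTAC, 3.65%), SP/KLF (GGGCGGG, 25.6%), the NRF2 element (TGACNNNGC, 12.4%) and the p53 element by name (0.0731%, or 24 windows). Motifs of different factors may overlap. The capitals of Cdkn1a are a p53 match, its only match in this window, at position -73 from the start. Those of Ccnd3 are a FOXO match at -243, an NRF2 match at -165 and SP/KLF matches at -153 and -19. Cdkn1b held no match wholly before its start, and an NRF2 match at -2 that runs across it. The window of the second Cdkn1a start held 2 SP/KLF matches and 1 NRF2 match. Both Cdkn2c starts, the Cdkn2d start and the second Ccnd3 start also had windows, with SP/KLF matches in 3 of these 4 and an E-box in the other. A match is a description of letters and not a bound site. Windows were found for 5 of the 8 members in the RefSeq tables, and none for Cdkn1c, Ccnd1 and Ccnd2.

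Cdkn1b stood at 23.9, 24.3, 25.3 and 27.1 CPM in the libraries of macrophages alone. With control corpses the values were 16.2, 19.6, 17.2 and 16.5 CPM, and with STC1-overexpressing corpses 16.5, 17.7, 18.4 and 19.2 CPM. All 8 corpse libraries lay below the 4 of macrophages alone, and the corpse groups overlapped. Cdkn1b fell by 0.54 ± 0.06 on the log2 scale with control corpses (adjusted p = 7.37e-09 by edgeR) and by 0.49 ± 0.06 with STC1-overexpressing corpses (adjusted p = 4.89e-08 by edgeR). The difference between the corpse groups was 0.05 on the log2 scale, with an interval of -0.07 to 0.17 (adjusted p = 0.691 by edgeR). That interval leaves room for a difference in either direction. Amz1 (r = 0.9842), Bmf (0.9836) and Jmy (0.9803) followed Cdkn1b most closely. Bmf, a pro-apoptotic BH3-only gene, stood at 13.9, 5.31 and 5.22 CPM in the same order of groups.

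Cdkn1a, which p53 and many stress signals induce, stood at 228, 231.5, 226 and 221 CPM in macrophages alone. With control corpses it was at 197, 182, 192 and 195 CPM, and with STC1-overexpressing corpses at 218, 203, 215 and 216 CPM. Control corpses gave the lowest values and no ranges overlapped. Cdkn1a fell by 0.24 ± 0.03 on the log2 scale with control corpses (0.845-fold; adjusted p = 1.62e-08 by edgeR). With STC1-overexpressing corpses the fall was small, 0.940-fold (95% interval 0.903 to 0.978; adjusted p = 0.00944 by edgeR). That call was lost without replicate 2 of the STC1 group, where the log2 fold change was -0.06 (adjusted p = 0.112 by edgeR), with libraries 3 and 4 alone (-0.05, adjusted p = 0.111) and with DESeq2 (-0.07, adjusted p = 0.0555). Between the corpse groups Cdkn1a was 1.11-fold higher with STC1-overexpressing corpses (1.07 to 1.16; adjusted p = 0.000843 by edgeR), a call that was lost in libraries 1 and 2 alone (log2 fold change 0.15, adjusted p = 0.28). An unnamed transcript on the other strand overlaps 273 exon bases of Cdkn1a and also fell with both kinds of corpse, with group means of 5.13, 4.08 and 3.78 CPM, and the sources used here do not give strand use in counting. Atf4 (r = 0.9704), the amino acid and stress response factor, Tkt (0.9673), the transketolase of the pentose phosphate pathway, and Vim (0.9580) followed Cdkn1a most closely. Atf4 stood at 99.1, 88.8 and 96.5 CPM.

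Of the INK4 inhibitors, Cdkn2c was called in 2 of the 3 comparisons and Cdkn2d in 0 by edgeR. Cdkn2c (p18; ENSMUSG00000028551.14, chromosome 4, 109660876 to 109667189, minus strand) stood at 14.95, 15.44, 15.1 and 15.2 CPM in macrophages alone. The values were 14.0, 13.6, 14.8 and 14.3 CPM with control corpses and 13.4, 12.6, 11.3 and 11.8 CPM with STC1-overexpressing corpses. The 3 ranges did not overlap, and the STC1 group was lowest. Cdkn2c fell by 0.31 ± 0.06 on the log2 scale with STC1-overexpressing corpses (adjusted p = 4.84e-05 by edgeR), while with control corpses the log2 fold change of -0.10 was not called (95% interval -0.21 to 0.02; adjusted p = 0.176 by edgeR). In libraries 1 and 2 alone the fall with STC1-overexpressing corpses was not called (-0.23, adjusted p = 0.0524 by edgeR). Between the corpse groups it was 0.865-fold with STC1-overexpressing corpses (0.798 to 0.938; adjusted p = 0.0256 by edgeR). This difference was -0.09 on the log2 scale in libraries 1 and 2 alone (adjusted p = 0.85 by edgeR) and -0.33 in libraries 3 and 4 alone (adjusted p = 0.0022 by edgeR). The call was also lost without replicate 1, 3 or 4 of the control corpse group or replicate 3 or 4 of the STC1 group (adjusted p = 0.0515 to 0.122 by edgeR).

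Cdkn2d (p19; ENSMUSG00000096472.2, chromosome 9, 21288410 to 21291407, minus strand) was the one member that passed no test. It stood at 5.88 to 8.06 CPM in macrophages alone, 5.56 to 6.16 CPM with control corpses and 5.64 to 7.01 CPM with STC1-overexpressing corpses, and every pair of ranges overlapped. The fold was 0.858 with control corpses (95% interval 0.751 to 0.980; adjusted p = 0.0613 by edgeR). Leaving out replicate 2 or 3 of macrophages alone brought this past the threshold (log2 fold change -0.26 and -0.29, adjusted p = 0.0499 and 0.0213 by edgeR), and leaving out replicate 4, the highest, gave -0.12 (adjusted p = 0.347). With STC1-overexpressing corpses the fold was 0.918 (0.803 to 1.05), and between the corpse groups 1.07 (0.935 to 1.22). The genes that followed Cdkn2d most closely were Tmem218 at r = 0.8465, Ccnq, which encodes a cyclin, at 0.7868, and Tax1bp3 at 0.7790. For Cdkn2c they were Nae1 (0.9237), Wdr90 (0.9236) and Prpf39 (0.9231).

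Ccnd1 encodes cyclin D1, the D-type cyclin that M-CSF induces in macrophages (ENSMUSG00000070348.5, chromosome 7, 144929931 to 144939925, minus strand). It stood at 269.9, 281, 269 and 283 CPM in macrophages alone. With control corpses the libraries held 355, 293, 347 and 328 CPM, and with STC1-overexpressing corpses 349.8, 307, 331 and 345 CPM. All corpse libraries lay above macrophages alone, and replicate 2 was lowest in both corpse groups. Ccnd1 rose 1.2-fold with control corpses (95% interval 1.09 to 1.32; adjusted p = 0.00547 by edgeR) and 1.21-fold with STC1-overexpressing corpses (1.10 to 1.33; adjusted p = 0.00397 by edgeR). In libraries 1 and 2 alone the log2 fold changes were 0.23 and 0.25 and neither was called (adjusted p = 0.29 and 0.24 by edgeR). The corpse groups differed by 0.01 on the log2 scale with an interval of -0.12 to 0.15 (adjusted p = 0.949 by edgeR). LTO1 overlaps 1100 exon bases of Ccnd1 on the other strand, and was not called in any comparison, with group means of 19.6, 18.2 and 18.0 CPM. Trmt10c (r = 0.9732), Plk2 (0.9707), a polo-like kinase gene that p53 also induces, and Pabpc4 (0.9685) followed Ccnd1 most closely.

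Ccnd2 and Ccnd3 encode the other D-type cyclins. Ccnd2 (ENSMUSG00000000184.12, chromosome 6, 127125162 to 127152193, minus strand) stood at 5.07, 4.45, 4.94 and 4.99 CPM in macrophages alone. It was at 4.84, 4.95, 5.77 and 5.24 CPM with control corpses and at 3.98, 3.41, 3.64 and 4.64 CPM with STC1-overexpressing corpses. The STC1 group was the lowest, below the control corpse group without overlap, while its highest library overlapped macrophages alone. With control corpses Ccnd2 was not called (log2 fold change 0.09, 95% interval -0.11 to 0.29; adjusted p = 0.486 by edgeR). With STC1-overexpressing corpses it fell by 0.31 ± 0.10 on the log2 scale (adjusted p = 0.0131 by edgeR), and it was 0.755-fold of the control corpse level (0.655 to 0.870; adjusted p = 0.0134 by edgeR). Both calls rested on few libraries. Without replicate 2 or 3 of the STC1 group the log2 fold change against macrophages alone was -0.24 or -0.27 (adjusted p = 0.0731 and 0.0539 by edgeR), and it was -0.37 in libraries 1 and 2 alone and -0.26 in libraries 3 and 4 alone (adjusted p = 0.0742 and 0.132). The call against control corpses was lost in libraries 1 and 2 alone (-0.40, adjusted p = 0.403 by edgeR), and without replicate 2 or 3 of the STC1 group or replicate 3 of the control corpse group (log2 fold change -0.35 to -0.37). Thap2 (r = 0.8733), Esco2 and Ncaph (both 0.8728) followed Ccnd2 most closely. Esco2 acts in sister chromatid cohesion and Ncaph is a condensin subunit.

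Ccnd3 stood at 34.8, 34.0, 36.7 and 36.8 CPM in macrophages alone, at 32.1, 30.9, 32.8 and 32.2 CPM with control corpses and at 29.9, 32.7, 29.5 and 33.5 CPM with STC1-overexpressing corpses. All corpse libraries lay below those of macrophages alone, and the corpse groups overlapped. Ccnd3 fell to 0.899-fold with control corpses (95% interval 0.847 to 0.955; adjusted p = 0.0041 by edgeR) and to 0.883-fold with STC1-overexpressing corpses (0.831 to 0.939; adjusted p = 0.000965 by edgeR). In libraries 1 and 2 alone neither was called (log2 fold change -0.12 and -0.13, adjusted p = 0.164 and 0.127 by edgeR). Bysl, a ribosome assembly gene, overlaps 361 exon bases of Ccnd3 on the other strand and rose in both comparisons (0.34 and 0.39 on the log2 scale), the opposite direction to Ccnd3. Dcaf10 (r = 0.9646), Abi1 (0.9272) and Arrdc1 (0.9251) followed Ccnd3 most closely.

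**Figure D3:**
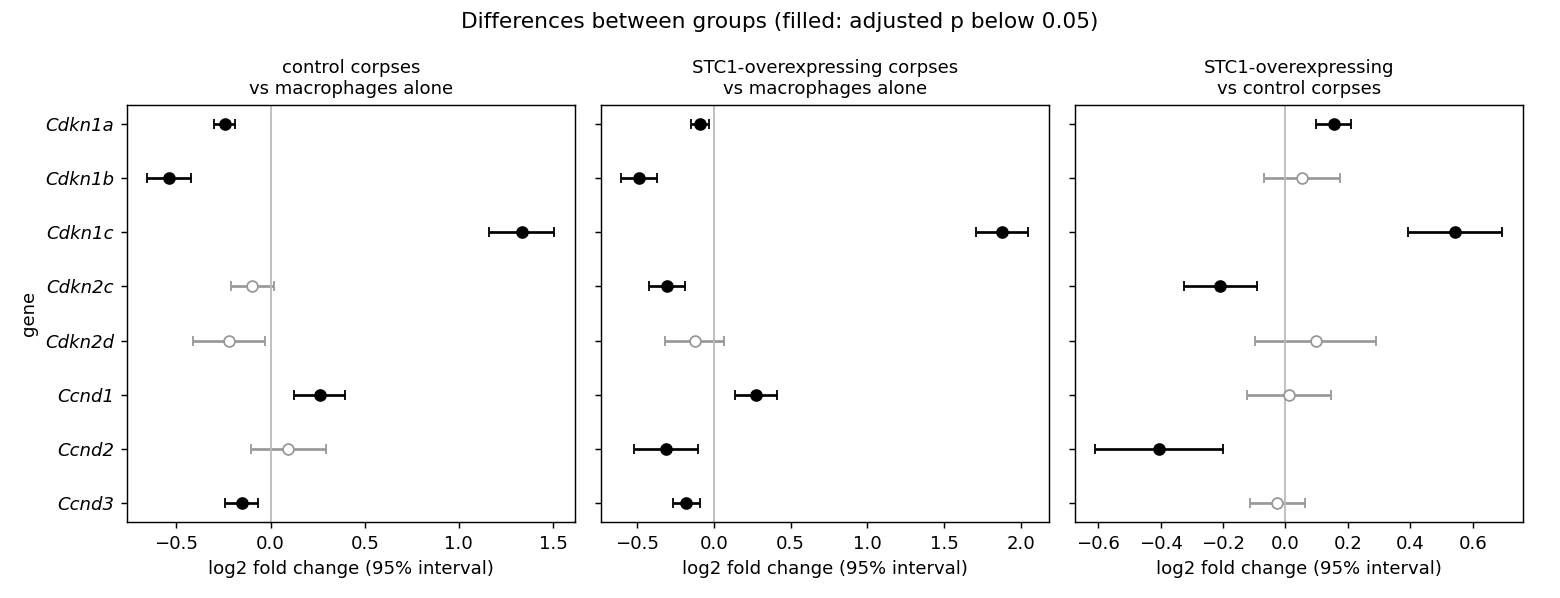
Log2 fold change (x axis, with its 95% interval) of the 8 genes in the 3 comparisons; filled points passed an adjusted p of 0.05. Cdkn1c lies at 1.33, 1.88 and 0.54, and the other 7 genes lie between -0.54 and 0.27. The x axes differ in scale.

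By ranges over libraries, 6 of 8 members did not overlap between control corpses and macrophages alone, 2 above and 4 below, where 37.3% of all genes tested did not (18.4% above, 18.9% below). Between STC1-overexpressing corpses and macrophages alone 6 of 8 did not overlap, 2 above and 4 below, where 40.0% did not (19.8% above, 20.2% below). Between the corpse groups 4 of 8 did not overlap, 2 above and 2 below, where 10.8% did not (5.91% above, 4.85% below). Over the 12 libraries Cdkn1c ran against Cdkn1b (r = -0.844) and Cdkn2c (-0.819) and with Ccnd1 (0.797), and Cdkn1b ran with Ccnd3 (0.791) and against Ccnd1 (-0.876). These coefficients describe libraries of 3 groups that share their depth and are given without a test.

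The partners of these genes were taken from 10 lists with 114 tested genes, of which 39 rose and 37 fell with control corpses and 34 rose and 38 fell with STC1-overexpressing corpses. Of the same genes 4 were higher and 19 lower between the corpse groups. These and the list counts are to be read beside the shares of all genes tested, 19.7% higher and 20.4% lower with control corpses, 21.4% and 22.4% with STC1-overexpressing corpses, and 3.37% and 2.11% between the corpse groups. Among the CDKs and the CDK-activating kinase 3 of 7 rose and 1 fell with control corpses, and 1 rose and 0 fell with STC1-overexpressing corpses. Cdk4, the partner of D-type cyclins, rose from 75.5 to 91.7 CPM with either kind of corpse (log2 fold change 0.28 ± 0.03 in both). Cdk6, its paralogue, which falls outside the naming rule and was chosen after its values were seen, stood at 338, 309 and 326 CPM and fell with control corpses by 0.13 on the log2 scale. Of the 3 pocket protein genes, Rb1 and Rbl2 fell in both comparisons (by 0.20 and 0.29 with control and by 0.21 and 0.27 with STC1-overexpressing corpses), and Rbl1 rose with control corpses (0.13 ± 0.05). Rb1 encodes the retinoblastoma protein, and Rbl2 its relative p130, which is most abundant in resting cells.

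The list of G1/S target genes, which E2F factors switch on, also held the more general proliferation genes Mki67 and Top2a. Of its 15 genes, 9 rose and 1 fell with control corpses (median log2 fold change 0.26). With STC1-overexpressing corpses 6 rose and 5 fell (median 0.04), with Mki67 and Top2a among those 5. Against control corpses 12 of 15 were lower and 0 higher (median -0.23), where 2.11% of all genes tested were lower and 3.37% higher. The summed melanocyte markers also differed between these groups, at 17.1 to 21.5 CPM with control and 11.3 to 12.8 CPM with STC1-overexpressing corpses. The part of corpse RNA in the changes of this list was not tested. Mcm2, a subunit of the replicative helicase, stood at 63.0, 90.7 and 81.7 CPM in macrophages alone, with control and with STC1-overexpressing corpses. Cdc6, which loads that helicase, stood at 12.5, 18.2 and 15.4 CPM. Mki67, a proliferation marker, fell from 102 to 75.3 CPM with STC1-overexpressing corpses (-0.43 ± 0.06, adjusted p = 3.55e-05 by edgeR), and stood at 91.7 CPM with control corpses (-0.15, adjusted p = 0.0549). Tk1 (thymidine kinase) and Tyms (thymidylate synthase) differed by -0.29 and -0.30 on the log2 scale between STC1-overexpressing and control corpses. In libraries 1 and 2 alone the count of 12 lower genes was 0, and in libraries 3 and 4 alone it was 12. It was 7 without replicate 4 of the STC1 group or replicate 1 of the control corpse group, and 8 without replicate 2 or 3 of the STC1 group or replicate 3 or 4 of the control corpse group. Cyclins E, A and B had 3 of 5 higher and 1 lower with control corpses, 1 and 1 with STC1-overexpressing corpses, and 0 and 3 between the corpse groups. Ccne1, a partner of CDK2, rose from 8.51 to 10.9 CPM with control and to 10.1 CPM with STC1-overexpressing corpses. The B-type cyclin gene Ccnb2 fell from 4.57 to 3.66 CPM with control and to 3.01 CPM with STC1-overexpressing corpses. Ccne2 differed by -0.32 on the log2 scale between STC1-overexpressing and control corpses (adjusted p = 0.00254 by edgeR). Among E2F and DP factors 5 of 10 rose and 1 fell with control corpses and 3 and 1 with STC1-overexpressing corpses. Tfdp2, an E2F partner, fell from 13.04 to 8.91 and 8.19 CPM.

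Since Cdkn1a is a p53 target, the other p53 targets listed were read beside it: 4 of 16 rose and 6 fell with control corpses, 6 rose and 5 fell with STC1-overexpressing corpses, and 2 were higher and 0 lower between the corpse groups. Btg2, an antiproliferative gene, fell from 24.2 to 10.3 and 9.25 CPM, Bbc3, which encodes the pro-apoptotic PUMA, from 14.3 to 7.58 and 8.48 CPM, and Pmaip1, which encodes NOXA, from 10.2 to 6.03 and 6.51 CPM. These had the largest changes of the list. Among the targets that rose was Mdm2 (150.3, 173.6 and 186.3 CPM), which falls outside the naming rule and was chosen after its values were seen. Sesn2, a stress-induced regulator of mTORC1, was higher with STC1-overexpressing than with control corpses (25.9 against 22.2 CPM), and stood at 26.3 CPM in macrophages alone. Trp53 itself rose from 50.9 to 58.0 and 60.9 CPM. Of the 3 tested genes of its list (other inhibitors and Trp53), Trp53 was the one called.

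Genes that turn over the inhibitors and D-type cyclins had 3 of 12 higher and 3 lower with control corpses, 4 and 3 with STC1-overexpressing corpses and 0 and 0 between the corpse groups at an adjusted p below 0.05 by edgeR. Cks1b, the SKP2 cofactor needed for p27 degradation, rose from 4.98 to 6.97 and 6.81 CPM. Skp2 itself, which falls outside the naming rule, had means of 0.00705, 0 and 0.00739 CPM and was not tested. A change in p27 degradation was not tested either. Usp2, a deubiquitinase that stabilises cyclin D1, fell from 10.6 to 7.83 and 7.72 CPM. Of 25 transcription factors tied to the members 6 rose and 14 fell with control corpses, and 6 rose and 13 fell with STC1-overexpressing corpses. Klf4, an inducer of Cdkn1a, fell from 7.85 to 3.59 and 4.21 CPM. Maf, which restrains macrophage self-renewal, fell from 290.1 to 215 and 214 CPM. Myc, which represses Cdkn1a, rose from 56.2 to 75.4 CPM with control and to 77.4 CPM with STC1-overexpressing corpses, and the immediate early gene Egr1 stood at 24.4, 36.9 and 35.5 CPM. Jun was higher with STC1-overexpressing than with control corpses (262 against 235 CPM), and stood at 205 CPM in macrophages alone. Of 18 genes of CSF1 receptor and growth signalling 4 rose and 8 fell with control corpses and 6 rose and 8 fell with STC1-overexpressing corpses. Dusp6, an ERK phosphatase that ERK signalling induces, rose from 93.8 to 178 and 182 CPM. Csf1, the M-CSF gene, fell from 12.8 to 8.49 and 9.004 CPM, and Dusp1 from 135 to 91.1 and 91.7 CPM.

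**Figure D4:**
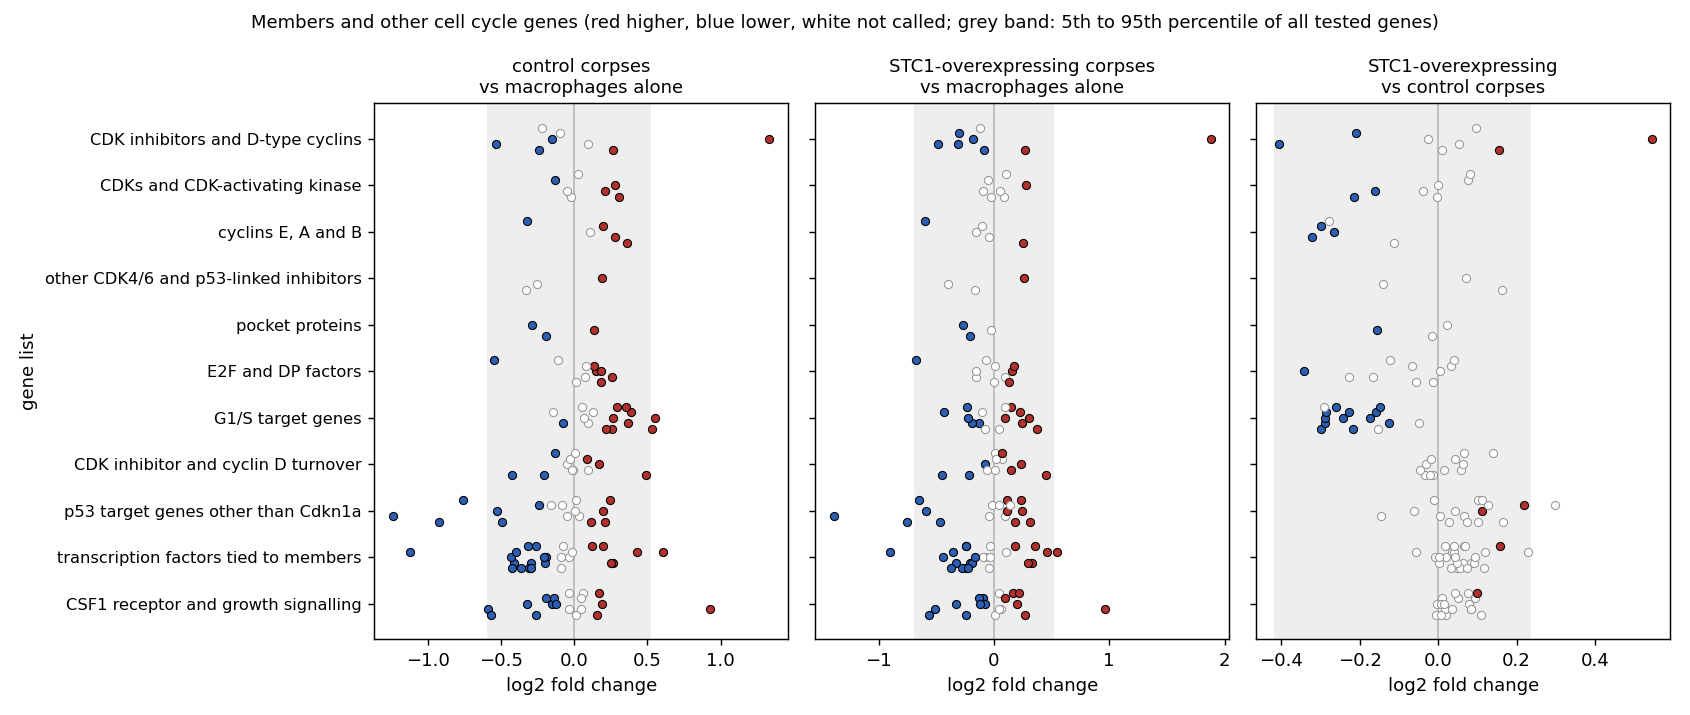
Log2 fold change (x axis) of the 8 genes (top row) and of the tested genes of the 10 lists in the 3 comparisons, 1 point per gene; red and blue points are higher and lower at an adjusted p below 0.05, white points are not called, and the grey band spans the 5th to 95th percentile of all genes tested. Cdkn1c lies outside the band in each comparison, and 12 of 15 genes of the G1/S target list are blue between the corpse groups.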

How the data were processed

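The authors deposited unnormalized counts of reads for each gene; HISAT2, HTSeq and DESeq2 and the builds mm10 and GRCm38 are named per the submitters' processing notes, without versions. Lines that name no gene were left out (no feature 10.55% to 14.69%, ambiguous 5.532% to 6.619%, low quality 5.174% to 5.853%, not aligned 10.81% to 17.77% and not unique 5.738% to 7.028% of reads). Symbols were matched by identifier (54723 of 55604 genes), and coordinates and exon lengths are of GENCODE M21 (GRCm38).

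Counts were tested in R 4.3.3 with edgeR 4.0.16: filterByExpr (minimum count 10, total 15), TMM factors and robust quasi-likelihood fits of group means over the 12 libraries (two-sided; Benjamini-Hochberg adjustment over 16406 genes), at a threshold of 0.05. Standard errors are the log2 fold change over the root of its F statistic, and intervals are at 95%. The common biological coefficient of variation was 4.53%. The fit was first tested on simulated data. Alternatives were RLE and upper-quartile factors, no filter, DESeq2 1.42.0, the groups compared only, a replicate block, libraries 1 and 2 or 3 and 4 alone, and each library left out.

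Named were all members, up to 3 called genes per list and comparison with the largest change and a mean of at least 2 CPM, and the 3 protein-coding genes of at least 2 CPM with the highest correlation of log2 CPM (prior count 2) with each member. The members and lists were chosen with earlier results of these data known.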

Additional observations from a re-analysis of the deposited data

Results flagged for a closer look

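In 1 of 24 sets of 4 libraries (8 genes in 3 groups) a library stood apart: Cdkn1a in replicate 2 of the STC1 group was at 203.4 CPM against 215.2 CPM for the next lowest, a gap of 0.831 of the group's range, past Dixon's critical value for 4 samples. Chance alone puts about 1 in 20 such sets past this value.

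The change with corpses differed between the kinds of corpse for 4 of 8 genes, by edgeR's test of the difference between the corpse groups, where 5.48% of all genes tested were called. On the log2 scale, STC1-overexpressing minus control corpses, it was 0.54 for Cdkn1c (1.46-fold, higher in all 4 libraries than in any of the control corpse group), 0.15 for Cdkn1a, -0.21 for Cdkn2c and -0.41 for Ccnd2. Ranges of the corpse groups did not overlap for 4 of the 8 genes, where 10.8% of all genes tested did not. These were the same 4 genes, read from the same libraries as the test. Of the 20 alternatives in processing, 6 lost the call of Cdkn2c, 4 that of Ccnd2, 1 that of Cdkn1a and 1 that of Cdkn1c.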

How the results depend on the processing

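Under 20 alternatives for 24 member results, 449 of 480 values kept their direction and side of the threshold, 24 lost a call and 2 gained one. The other 5 changed sign while uncalled, all between the corpse groups: Cdkn1b in libraries 1 and 2 alone (-0.0588), Ccnd1 with upper-quartile factors (-4e-04) and without control corpse replicate 2 (-0.0438) or STC1 replicate 1 (-0.0147), and Ccnd3 without STC1 replicate 3 (8e-04). In libraries 1 and 2 alone, the calls lost were Ccnd1 (0.23) and Ccnd3 (-0.12) with control corpses, Ccnd1 (0.25), Ccnd2 (-0.37), Ccnd3 (-0.13) and Cdkn2c (-0.23) with STC1-overexpressing corpses, and Cdkn1a (0.15), Cdkn1c (0.52), Cdkn2c (-0.0905) and Ccnd2 (-0.40) between the corpse groups, all as log2 fold changes with fewer samples. In libraries 3 and 4 alone, Cdkn1a (-0.0529) and Ccnd2 (-0.26) lost their calls with STC1-overexpressing corpses, as did Cdkn1a with DESeq2 (-0.0718). Leaving out 1 library at a time gave -0.29 to -0.12 for Cdkn2d with control corpses, -0.10 to -0.057 for Cdkn1a and -0.39 to -0.24 for Ccnd2 with STC1-overexpressing corpses, and -0.26 to -0.17 for Cdkn2c and -0.49 to -0.35 for Ccnd2 between the corpse groups.

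Libraries 1 and 2 alone called 12.1% of all genes tested higher and 12.7% lower with control corpses (19.7% and 20.4% with all libraries), 13.7% and 14.5% with STC1-overexpressing corpses (21.4% and 22.4%) and 0.164% and 0.0363% between the corpse groups (3.37% and 2.11%), where libraries 3 and 4 alone called 7.84% and 3.78%. With 1 library left out the last shares ranged from 1.68% to 4.35% and from 0.874% to 2.83%, and moved by over 1.5 times without replicate 1 or 3 of the control corpse group or replicate 3 or 4 of the STC1 group. For the pathway lists, libraries 1 and 2 alone gave 22 higher with control corpses (39), 18 higher and 25 lower with STC1-overexpressing corpses (34 and 38) and 0 and 0 between the corpse groups (4 and 19). Between the corpse groups the 4 higher became 7 with RLE factors, 7 with no filter, 9 with DESeq2, 12 with the replicate block and 13 in libraries 3 and 4 alone, and ranged from 2 to 10 with 1 library left out, while the lower ranged from 10 to 22. The cause was not tested.

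No pairing by replicate number was seen: deviations of same-numbered libraries correlated at -0.0434 to 0.0913 over genes, and those of different-numbered ones at -0.0915 to 0.0958. With 4 libraries per group this check is weak and does not exclude pairing. The replicate block changed no call of a member, but took the list genes higher between the corpse groups from 4 to 12. With the block the Cdkn1c difference between the corpse groups remained 0.54.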

Other observations

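The chromosomal neighbours of the members were read after their values were seen. They were at most 3 tested protein-coding genes on each side, the nearest by distance between gene centres (5 in all for Ccnd1). Distances given below are gaps between genes. Cdkn1c lies in an imprinted cluster, and 2 of its 6 neighbours were called higher and 2 lower in each comparison with macrophages alone, where 19.7% and 21.4% of all genes were called higher and 20.4% and 22.4% lower. Slc22a18, 12.7 kb away, stood at 3.34, 3.30 and 4.06 CPM in macrophages alone, with control and with STC1-overexpressing corpses, and was called with STC1-overexpressing corpses only by edgeR (log2 fold change 0.28, adjusted p = 0.0381). Kcnq1, 31.3 kb away on the other side, fell in both comparisons, from 1.25 to 0.700 and 0.589 CPM. Nap1l4 (52.5 kb) rose by 0.19 and 0.18 on the log2 scale and Tssc4 (387 kb) by 0.17 with control corpses, and none of the 6 neighbours was called between the corpse groups by edgeR.

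All 6 neighbours of Ccnd2 rose with control corpses, from 0.10 to 0.45 on the log2 scale, where 19.7% of all genes were called higher and Ccnd2 was not called. With STC1-overexpressing corpses 3 of 6 were higher, with log2 fold changes from -0.11 to 0.48. The most distant of them lay 1170 kb away. Among the 8 members, this set had the most calls in 1 direction. Of the 6 neighbours of Cdkn2d, 3 were higher and 0 lower with control corpses, and 5 and 0 with STC1-overexpressing corpses. For Cdkn1b 3 of 6 were higher and 2 lower with control corpses. Tigar, a p53-induced regulator of glycolysis 15.6 kb from Ccnd2, stood at 12.5, 16.7 and 17.4 CPM. Rad51ap1, a DNA repair gene 186 kb from Ccnd2, differed between the corpse groups in the same direction as Ccnd2, lower in the STC1 group (log2 fold change -0.44, adjusted p = 0.0018 by edgeR).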
